A study of Mus musculus with 23 samples.

Results

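Fatty acids are built in the cytosol from acetyl-CoA, and the 10 genes described here encode enzymes of that route and of the elongation and desaturation steps that follow it: Acly, Acaca, Fasn, Me1, Elovl5, Elovl6, Scd1, Scd2, Fads1 and Fads2. They were taken as a named list with no cut on a measured value. The list was chosen with earlier results of these data known, so it was not drawn blind to them. By way of a GRCm38 annotation, all 10 were found among the 38293 Ensembl genes of the count files. All 10 also passed the filter on low counts, which kept 16087 genes.

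RNA was measured in 23 libraries of astrocytes, a glial cell type, grown from the neocortex of mice at postnatal day 3 on a mixed background of 129/OLa+129/Sv+ with BALB/c+C57BL/6. No transgene or deletion is named in the labels. Every culture grew for 7 days in medium whose serum lacked thyroid hormone and was then held for 24 h in 0.1% of such serum. T3 (triiodothyronine, the active thyroid hormone) was then given at 10 nM for 6 h or 24 h, and CHX, read here as the protein synthesis inhibitor cycloheximide, at 8 µg/ml from 30 min before T3. At 6 h there were 4 libraries of each of 4 groups: 6 h control (no agent), 6 h T3, 6 h CHX (no hormone), and the 2 agents combined, called 6 h CHX plus T3. At 24 h there were 4 of 24 h control and 3 of 24 h T3. Whether the libraries of a group came from separate cultures or litters is not in the labels, so each p-value refers to the scatter among libraries, part or all of which may be technical.

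Acly makes cytosolic acetyl-CoA from citrate, Acaca carboxylates it to malonyl-CoA, and Fasn joins these units into palmitate with NADPH that Me1 helps to supply. Elovl6 lengthens saturated and monounsaturated chains, Elovl5 lengthens polyunsaturated ones, Scd1 and Scd2 put a first double bond into saturated chains, and Fads1 and Fads2 are the desaturases of polyunsaturated chain synthesis. In liver, thyroid hormone is known to raise several of these genes, and the transcription factor SREBP-1c, from Srebf1, is their best known common activator. Astrocytes are known to make and export lipids in brain.

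The genes lie on 4 chromosomes of GRCm38, and counts cover all their exons. The polyunsaturated and stearoyl-CoA desaturases are all on chromosome 19: Fads1 (ENSMUSG00000010663) at chr19:10182888-10196877, Fads2 (ENSMUSG00000024665) at chr19:10062765-10101746, Scd1 (ENSMUSG00000037071) at chr19:44394455-44407879 and Scd2 (ENSMUSG00000025203) at chr19:44293674-44306864. On chromosome 11 are Fasn (ENSMUSG00000025153) at chr11:120805846-120824547, Acaca (ENSMUSG00000020532) at chr11:84129672-84401651 and Acly (ENSMUSG00000020917) at chr11:100476353-100528000. On chromosome 9 are Me1 (ENSMUSG00000032418) at chr9:86581371-86695953 and Elovl5 (ENSMUSG00000032349) at chr9:77917364-77984519, and Elovl6 (ENSMUSG00000041220) at chr3:129532355-129638495 is the only member on chromosome 3. Exons of Me1 share 30 bases with the antisense gene A330041J22Rik, those of Elovl6 share 34 with the antisense gene Gm35986, and those of Scd2 hold the 61 bases of Mir5114. The library kit does not mark strand, so reads of such stretches cannot be told apart.

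Libraries held 13843040 to 22997873 gene counts. All 10 astrocyte markers passed the filter, and their summed level ran from 10929 to 11750 CPM (counts relative to the library total, after TMM scaling) in 6 h control. Markers of other cells were measured there too: vascular and meningeal markers summed to 2363 to 2543 CPM, oligodendrocyte lineage markers to 903 to 1018 CPM, neuron markers to 527 to 572 CPM and microglia markers to 59.6 to 76.3 CPM. In bulk RNA, fewer cells of a type cannot be told from less RNA per cell. Among the defining markers of these and the neuron and vascular lists, Mog, Enpp6, Nefl, Pecam1, Cldn5 and Slc6a13 stayed under the filter. In pairwise chi-square comparisons of libraries of a group, 24 h T3 replicate 1 stood apart from the other 2 of its group (chi-square per degree of freedom of 28.5 and 35.9, against 2.62 between those 2). Values with T3 at 24 h are therefore also given without it for Elovl5, Fasn and Scd1 among the members and for some related genes. The hormone treatment was visible in Hr, a direct T3 target, which averaged 10.8 ± 1.32 CPM (SD, n = 4) in 6 h control and 205 ± 14.7 CPM (SD, n = 4) in 6 h T3.

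Promoter sequences are shown for the members whose RNA changed with T3 alone, Elovl5 and Elovl6, and for Fasn and Acly, which did not pass the test with T3 although they are textbook lipogenic genes. They come from RefSeq on GRCm38.p6, run 5′ to 3′ on the gene's strand from 250 bases before the annotated start to 50 bases within the gene, and 7 members had an entry. Capitals mark matches on either strand to any of the motifs searched: the sterol element TCACNCCAC, the E-box CACGTG, the CCAAT box CCAAT, the GC box GGGCGG and the nuclear receptor half-site AGGTCA. Elovl5 lies at chr9:77917115-77917414 on the plus strand, Elovl6 at chr3:129532136-129532435 on the plus strand, Fasn at chr11:120824498-120824797 on the minus strand and Acly at chr11:100527951-100528250 on the minus strand.
Elovl5: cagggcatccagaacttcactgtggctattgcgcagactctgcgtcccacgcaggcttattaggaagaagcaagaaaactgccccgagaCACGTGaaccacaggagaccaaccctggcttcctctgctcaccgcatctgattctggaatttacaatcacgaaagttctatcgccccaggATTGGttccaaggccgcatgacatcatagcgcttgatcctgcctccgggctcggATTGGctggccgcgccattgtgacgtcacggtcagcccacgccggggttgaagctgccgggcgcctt
Elovl6: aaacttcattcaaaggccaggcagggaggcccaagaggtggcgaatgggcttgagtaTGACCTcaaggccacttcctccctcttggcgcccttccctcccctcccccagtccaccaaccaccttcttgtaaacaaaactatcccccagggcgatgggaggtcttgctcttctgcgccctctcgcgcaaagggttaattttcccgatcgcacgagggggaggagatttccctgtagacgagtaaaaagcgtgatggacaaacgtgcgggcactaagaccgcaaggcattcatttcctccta
Fasn: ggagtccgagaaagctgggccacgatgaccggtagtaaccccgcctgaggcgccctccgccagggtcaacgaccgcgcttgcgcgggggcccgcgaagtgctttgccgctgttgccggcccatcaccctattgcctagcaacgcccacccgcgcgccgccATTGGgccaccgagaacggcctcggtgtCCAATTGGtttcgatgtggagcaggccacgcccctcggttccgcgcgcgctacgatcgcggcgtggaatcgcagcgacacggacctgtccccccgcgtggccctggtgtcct
Acly: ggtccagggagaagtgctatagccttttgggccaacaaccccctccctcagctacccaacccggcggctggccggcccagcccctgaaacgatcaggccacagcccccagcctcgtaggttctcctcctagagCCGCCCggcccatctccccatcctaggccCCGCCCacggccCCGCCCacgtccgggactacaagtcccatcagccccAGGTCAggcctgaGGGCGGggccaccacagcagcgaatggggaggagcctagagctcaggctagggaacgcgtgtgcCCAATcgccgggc

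The Elovl5 promoter held an E-box whose first base lies 161 bases before the start, and CCAAT boxes at 71 and 17 bases before it. An E-box was found in 7.15% of all 32851 promoters searched and in 1 of the 8 promoters of the members (Me1 had 2 entries). Those 8 include the windows inside Acaca and Me1. Half-sites were found in the promoters of Elovl6, 193 bases before the start, and Acly, 40 bases before it, against 16.3% of all promoters. The CCAAT box stood in 4 of the 8 and in 37.4% of all promoters, and Fasn held 3 copies, of which the later 2 overlap on opposite strands. The Me1 match to this box lay in the window inside the gene. GC boxes were found in 3 of the 8 and in 35.7% of all, with 4 copies each in Acly and in 1 of the Me1 promoters. The sterol element was in none of the 8 and in 1.24% of all, and 2 half-sites in the same direction with 4 bases between them were in none of the 8 and in 0.0152% of all. These matches describe letters only, within windows of 300 bases.

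**Figure D1:**
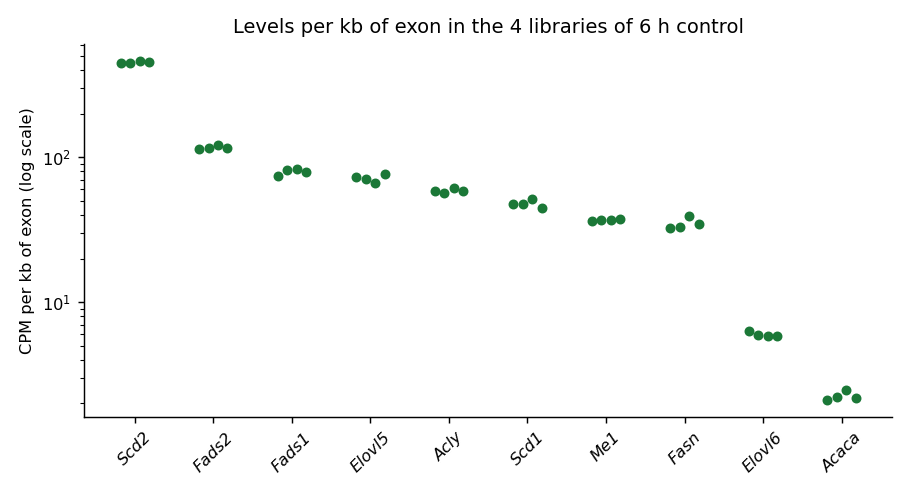
Level of each gene in the 4 libraries of 6 h control, as CPM per kb of exon on a log axis, with genes ordered by their mean. Each point is 1 library; Scd2 sits at the top with a mean of 454 and Acaca at the bottom with 2.24.

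Per kb of exon, Scd2 had the highest level of the 10 genes in 6 h control, at a mean of 454 CPM per kb. The polyunsaturated desaturases followed, Fads2 at 117 and Fads1 at 79.6 CPM per kb, and then Elovl5 at 71.9 and Acly at 58.8 CPM per kb. Scd1 stood at 47.9, Me1 at 37.0 and Fasn at 34.9 CPM per kb. Elovl6 at 5.97 and Acaca, the gene of the carboxylase step, at 2.24 CPM per kb were far below the rest. The plot of levels per kb shows that the library-to-library scatter was small beside this range. Reads of 50 nt that aligned to several places had not been counted to any gene, which bears on these levels: 30.4% of the 50-base windows in Acaca transcripts also occur in other genes, mostly in Gm5182, and 28.3% of those of Me1, mostly in Gm7049. For Scd1, Scd2 and Elovl6 the share was 4.56%, 3.97% and 3.98%, for Fads2 0.152%, and for the other members 0. The levels of Acaca and Me1 are therefore uncertain.

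**Figure D2:**
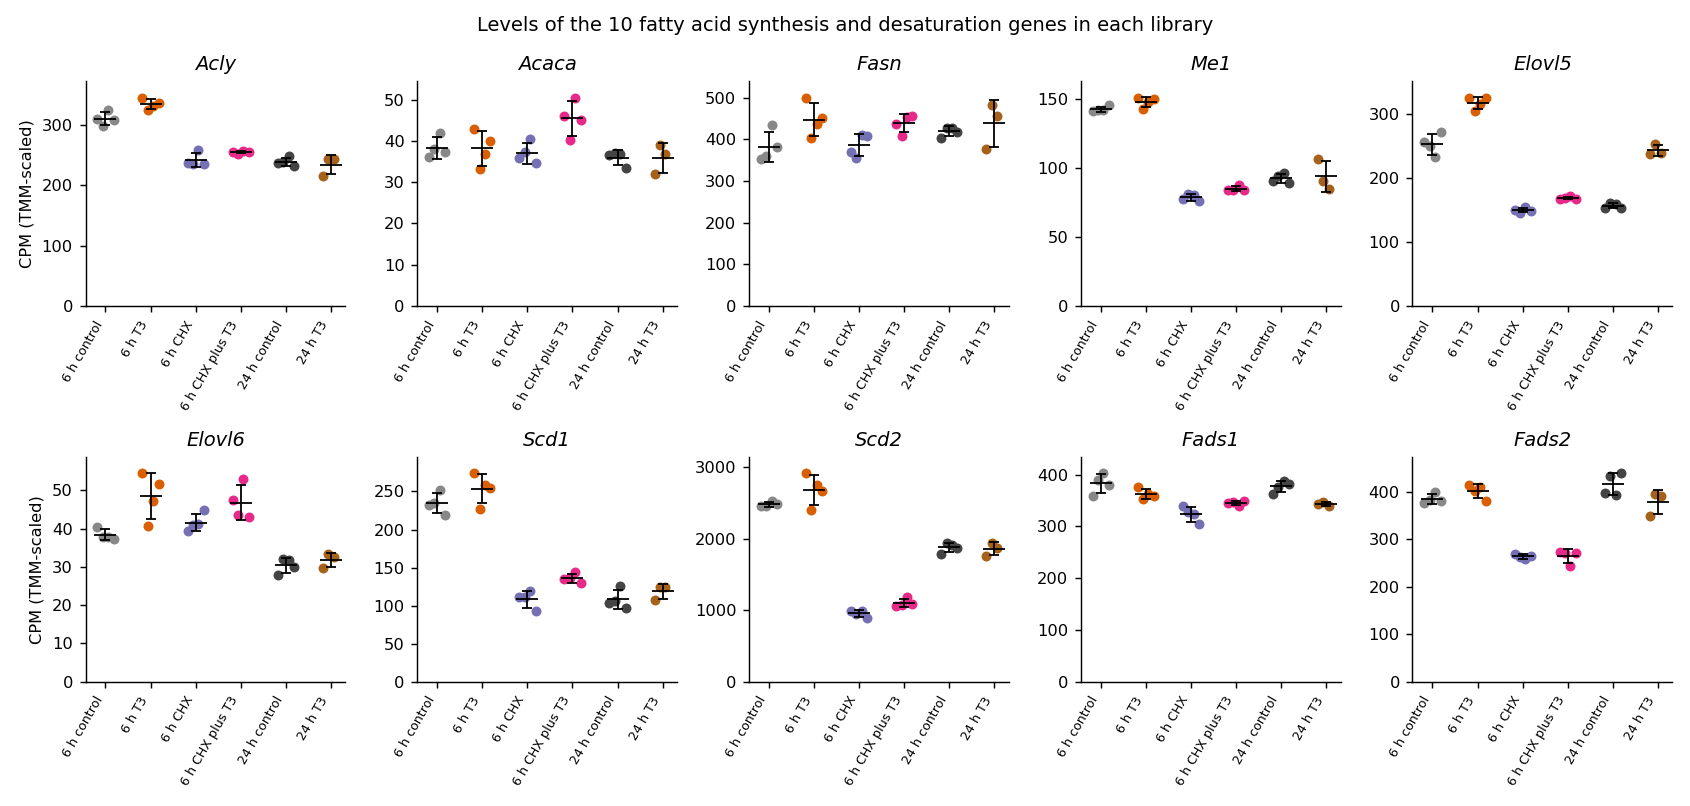
Level of each gene in every library, as CPM on TMM-scaled library sizes, by group; points are libraries and black marks are the group mean with its SD. Elovl5 is higher with T3 than in its control at both times, and Scd2 is lowest in the 2 CHX groups, with means of 954 and 1101 CPM.

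At 6 h, T3 raised the 2 elongase genes of the list, Elovl5 and Elovl6, and no other member passed the test (edgeR quasi-likelihood F test over all 16087 genes with Benjamini-Hochberg adjustment, called at an adjusted p under 0.05). Over all genes, 2.61% were called higher and 1.16% lower in this comparison, and no member was called lower. The median change of the 10 members was 0.11 on the log2 scale, against 0.00 over all genes tested, and 8 of the 10 had a positive value.

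Elovl5 was measured at 257, 251, 233 and 272 CPM in 6 h control and at 325, 306, 316 and 326 CPM in 6 h T3. Every T3 library lay above every control library, and the fitted log2 change was 0.33 ± 0.05 (SE), with an adjusted p of 4.43e-05. Elovl6 had 40.5, 37.9, 37.7 and 37.3 CPM in 6 h control and 54.4, 40.6, 47.1 and 51.5 CPM in 6 h T3. The lowest T3 library, replicate 2, was barely above the highest control library, and the log2 change was 0.34 ± 0.08 (SE) with an adjusted p of 0.0156. Without 6 h control replicate 2, 6 h T3 replicate 1 or 6 h T3 replicate 4, the adjusted p of Elovl6 rose to 0.0501, 0.0796 and 0.0735.

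Of the enzymes that make palmitate, Fasn came nearest to the threshold. It had 354, 359, 434 and 380 CPM in 6 h control and 499.8, 402, 437 and 450.1 CPM in 6 h T3. Those ranges overlapped, and the log2 difference was 0.23 ± 0.08 (SE) with an adjusted p of 0.1, so it was not called. It was called in 3 of the 9 other settings, with a lowest adjusted p of 0.00862 once length and GC trends were removed, and in 3 of the 23 fits that left out 1 library. Acly differed by 0.11 ± 0.05 (SE, adjusted p = 0.226) although its 2 ranges did not overlap, 298 to 324 CPM in 6 h control and 325 to 345 CPM in 6 h T3. Acaca differed by 0.00 ± 0.08 (SE, 95% interval -0.18 to 0.17) and Me1 by 0.05 ± 0.05 (SE, 95% interval -0.06 to 0.17). Changes of Me1 above 0.17 on the log2 scale thus lay outside its interval.

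The desaturases were not called either. Scd1 differed by 0.11 ± 0.08 (SE, adjusted p = 0.515) and Scd2 by 0.11 ± 0.05 (SE, adjusted p = 0.295). In Scd2, 3 of the 4 T3 libraries, at 2912, 2751 and 2667 CPM, lay above all controls (2449.7 to 2531 CPM), and replicate 2 lay below them at 2403 CPM. That same library was the lowest of its group for 9 of the 10 members, all but Fads2, and without it Fasn was called too (0.28 ± 0.08 (SE), adjusted p = 0.0472). Fads1 differed by -0.08 ± 0.04 (SE, adjusted p = 0.387) and Fads2 by 0.06 ± 0.05 (SE, adjusted p = 0.611). The summed astrocyte marker level was also higher in 6 h T3, at 12361 to 12665 CPM, than in 6 h control. Of its 10 genes 6 had positive and 4 negative values, 1 was called higher and 9 were not called. The vascular and meningeal sum was lower, at 2030 to 2309 CPM against 2363 to 2543 CPM, with 7 of 9 markers negative and none called. Positive values were found for 9 of 10 microglia markers, none called, and 7 of 9 neuron markers, 1 called higher. Of 8 oligodendrocyte lineage markers 6 were positive and 1 was called lower. The part of these in the members' values was not tested.

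After 24 h of T3, Elovl5 was the only member called, at a larger change than at 6 h, while the other 9 members lay between -0.14 and 0.14 on the log2 scale. Over all genes, 4.41% were called higher and 2.68% lower, and the median over the members was 0.01. Elovl5 stood at 153, 161, 159 and 154 CPM in 24 h control and at 238, 254 and 239.8 CPM in 24 h T3. The 2 groups were far apart, with a log2 change of 0.64 ± 0.05 (SE) and an adjusted p of 1.57e-09. Of the T3 libraries, replicate 1 was the lowest for 8 of the 10 members, Elovl5 included, and without it Elovl5 was still called (0.65 ± 0.05 (SE), adjusted p = 2.06e-09), while Fasn moved to 0.16 ± 0.08 (SE, adjusted p = 0.298) and Scd1 to 0.20 ± 0.09 (SE, adjusted p = 0.243), both still not called. With T3 at 24 h, Elovl5 had thus about the level of the 6 h controls, whose range of 233 to 272 CPM it overlapped. Of 10 astrocyte markers 1 was called higher and 2 lower with T3 at 24 h. Of 9 vascular and meningeal markers 1 was called in each direction, and of 8 oligodendrocyte lineage markers 7 were negative and 1 was called lower. Negative values were found for 8 of 10 microglia and 8 of 9 neuron markers, none called. The part of these markers in the members' values was not tested.

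The change of Elovl5 at 24 h exceeded that at 6 h by 0.31 ± 0.07 (SE) on the log2 scale, with an adjusted p of 0.0254 in the test of the difference itself. Across all genes, 0.541% were called in that direction. The call was lost without the filter on low counts (adjusted p = 0.0607), in a fit of only the groups compared (adjusted p = 0.11) and in 6 of the 23 fits that each left out 1 library, up to an adjusted p of 0.0746. Those were the fits without 24 h control replicates 1, 2 or 4, 24 h T3 replicate 2, 6 h control replicate 1 or 6 h T3 replicate 3. For Elovl6 the difference between times was -0.27 ± 0.12 (SE, adjusted p = 0.284), so its 2 T3 values were not shown to differ.

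Elovl6 had 27.8, 32.2, 31.8 and 29.9 CPM in 24 h control and 29.7, 33.4 and 32.5 CPM in 24 h T3, which overlapped, and the difference was 0.07 ± 0.09 (SE, adjusted p = 0.719). Fads1, the delta-5 desaturase, had 364, 376, 388 and 382 CPM in 24 h control and 344, 348 and 339 CPM in 24 h T3. Its groups did not overlap, yet its value of -0.14 ± 0.05 (SE, adjusted p = 0.0851) missed the threshold, and it was called lower with DESeq2 alone (adjusted p = 0.0155). Fads2, the delta-6 desaturase, differed by -0.13 ± 0.06 (SE, adjusted p = 0.157). Fasn differed by 0.06 ± 0.08, Acaca by 0.00 ± 0.09, Acly by -0.03 ± 0.05, Me1 by 0.02 ± 0.06, Scd1 by 0.14 ± 0.09 and Scd2 by -0.01 ± 0.06 (SE), and none of these was called. Me1 had 106 CPM in 24 h T3 replicate 1, against 90.5 and 84.7 CPM in replicates 2 and 3. Over the alternative fits Me1 ran from -0.08 to 0.09, Acaca from -0.06 to 0.10 and Fads2 from -0.17 to -0.08, all uncalled.

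**Figure D3:**
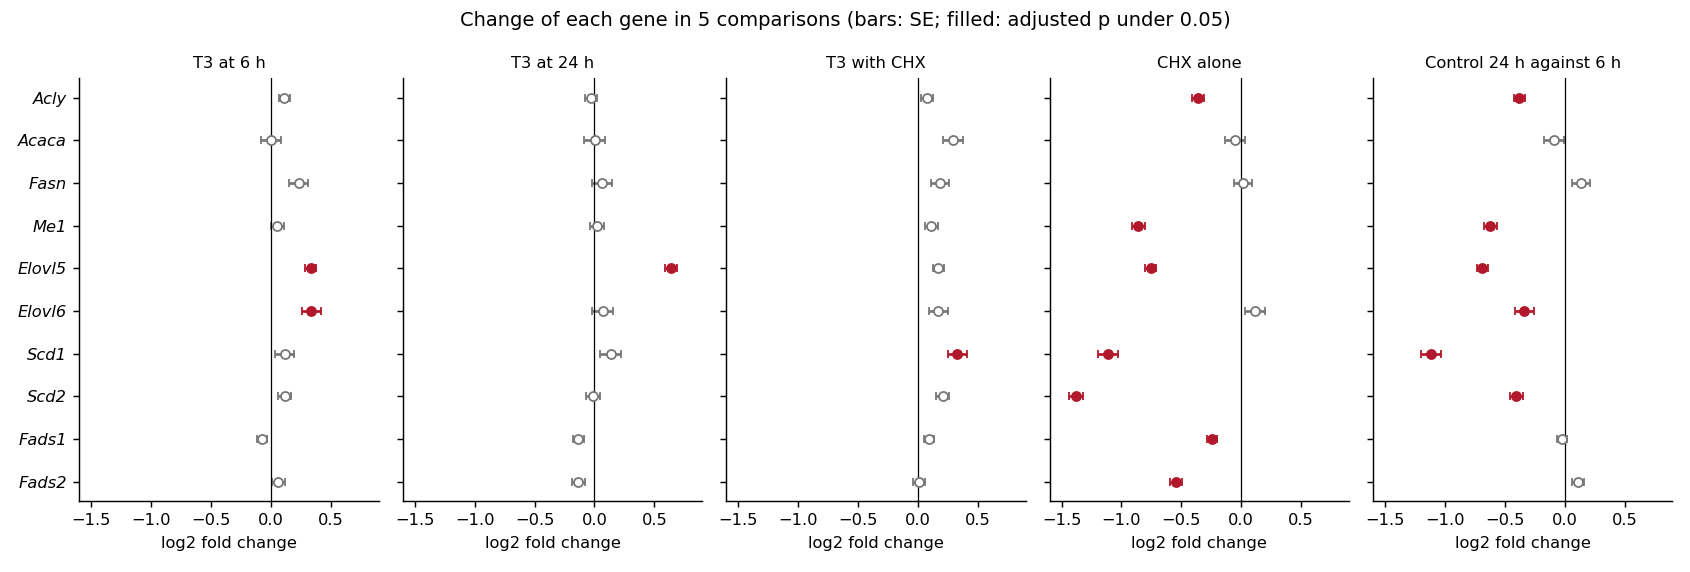
Log2 fold change of each gene in 5 comparisons, with bars for its SE; filled red points were called at an adjusted p under 0.05 and open points were not. Elovl5 is called with T3 at both times, 7 genes lie to the left of 0 and are called with CHX alone, and 6 do so in 24 h against 6 h controls.

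In the presence of CHX, T3 gave positive values for all 10 members, with a median of 0.17 on the log2 scale, but only Scd1 was called. Over all genes the median was -0.01, 7767 of 16087 were positive, and 1.16% were called higher. Scd1, a delta-9 desaturase, had 112, 111, 119 and 92.3 CPM in 6 h CHX and 135, 136, 144 and 129 CPM in 6 h CHX plus T3. Its groups did not overlap, and the log2 change was 0.33 ± 0.08 (SE, adjusted p = 0.0373). The call was lost in 11 of the 23 fits that left out 1 library, with the largest adjusted p, 0.201, without 6 h CHX replicate 4, the lowest of the CHX libraries. Without that library Scd2 had 0.18 ± 0.06 (SE, adjusted p = 0.269). The 11 fits left out any of the 4 libraries of 6 h CHX plus T3, replicates 1, 2 and 4 of 6 h CHX, replicates 1 and 2 of 6 h control and replicates 3 and 4 of 6 h T3.

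Another 3 members came near the threshold: Scd2 at 0.21 ± 0.05 (SE, adjusted p = 0.06), Elovl5 at 0.17 ± 0.05 (SE, adjusted p = 0.0682) and Acaca at 0.30 ± 0.08 (SE, adjusted p = 0.0825). DESeq2 called these 3 as well, and the number of members called ranged from 0 to 4 over the settings tried. Elovl5 had 150.2, 146, 155 and 149 CPM in 6 h CHX and 167, 169, 172 and 167 CPM in 6 h CHX plus T3. Scd2 ran from 891 to 988 CPM in 6 h CHX and from 1058 to 1187 CPM in 6 h CHX plus T3. Neither gene's groups overlapped. Acaca ran from 34.5 to 40.4 CPM in 6 h CHX and from 40.2 to 50.5 CPM with T3 added, so these groups overlapped. Elovl6 differed by 0.17 ± 0.08 (SE, adjusted p = 0.374), and Fasn by 0.18 ± 0.08 (SE, adjusted p = 0.31). The 10 microglia markers all had negative values, with none called, and their sum ran from 42.9 to 62.1 CPM in 6 h CHX and from 35.9 to 41.5 CPM with T3 added. Of 9 neuron markers 8 were negative and none was called, and the part of these in the members' values was not tested.

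No member's T3 change was shown to differ between cultures with and without CHX, in a comparison in which 0.584% of all genes were called higher and 0.634% lower. The largest differences were 0.30 ± 0.12 (SE, adjusted p = 0.227) for Acaca, 0.21 ± 0.11 (SE, adjusted p = 0.43) for Scd1, and -0.16 ± 0.06 (SE, adjusted p = 0.251) for Elovl5, whose 95% interval ran from -0.30 to -0.02. With edgeR 0 members were called after adjustment and 3 had an unadjusted p under 0.05, while DESeq2 called 1, Fads1 (0.19, adjusted p = 0.0415). By the file names, 3 of the 4 CHX libraries ran on lane 5 and the fourth, with all 4 of 6 h CHX plus T3, on lane 6, so a term for lane rests on 6 h CHX replicate 4 alone and cannot be told apart from that library.

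CHX alone lowered 7 of the 10 members, and Fasn, Acaca and Elovl6 were not called. Of all genes, 30.6% were called lower and 37% higher, and the median over the members was -0.45 on the log2 scale against 0.06 over all genes. The largest change was that of Scd2, the main stearoyl-CoA desaturase gene here, which had 2449.7, 2462, 2531 and 2481 CPM in 6 h control and 983, 953, 988 and 891 CPM in 6 h CHX. This was 2.60-fold lower, a log2 change of -1.38 ± 0.06 (SE, adjusted p = 1.18e-16), and the 2 groups were far apart. Its relative Scd1 had 232, 234, 252 and 219 CPM in 6 h control and was 2.16-fold lower with CHX, at -1.11 ± 0.08 (SE, adjusted p = 8.56e-12).

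Me1, the cytosolic malic enzyme, went from 141, 142, 142 and 145 CPM in 6 h control to 77.5, 81.1, 80.0 and 75.7 CPM in 6 h CHX. Its log2 change was -0.86 ± 0.05 (SE, adjusted p = 6.61e-13). Elovl5 changed by -0.75 ± 0.05 (SE, adjusted p = 3.12e-13) and Fads2 by -0.55 ± 0.05 (SE, adjusted p = 1.1e-09). For Fads2 the control libraries ran from 376 to 399 CPM and the CHX libraries from 258 to 269 CPM. Acly changed by -0.36 ± 0.05 (SE, adjusted p = 2.14e-07), and Fads1 by -0.24 ± 0.04 (SE, adjusted p = 2.38e-05), the smallest of the 7.

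Fasn differed by 0.02 ± 0.08, Acaca by -0.05 ± 0.08 and Elovl6 by 0.12 ± 0.08 (SE) with CHX alone, and the libraries of both groups overlapped for each of them. For Fasn the 95% interval ran from -0.14 to 0.18, which holds none of the values of the 7 called genes. In the groups with CHX, 30.7 to 32.9% of each library's alignments were not unique, against 36.2 to 42.3% in the other groups. The summed astrocyte markers were lower too, at 8183 to 9776 CPM in 6 h CHX, with 7 of the 10 called lower. Those of the oligodendrocyte lineage ran from 554 to 618 CPM, with 2 of 8 called higher and 4 lower. Of 9 vascular and meningeal markers 1 was called higher and 3 lower. Among the others, 4 of 10 microglia markers and 1 of 9 neuron markers were called lower and none higher. The part of these in the members' values was not tested. CPM are relative to the total of each library, so a change in the RNA content of a cell is not seen in them.

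Between 6 h and 24 h without hormone, 6 members fell, and Fasn, Acaca, Fads1 and Fads2 were not called. Of all genes 28.4% were called lower and 28.2% higher. Scd1 fell from 219 to 252 CPM in 6 h control to 104, 107, 126 and 96.3 CPM in 24 h control, by 1.11 ± 0.08 (SE) on the log2 scale with an adjusted p of 5.18e-11. Scd2 changed by -0.40 ± 0.05 (SE, adjusted p = 9.87e-07), from 2481 ± 35.9 to 1876 ± 65.0 CPM (SD, n = 4 each). Elovl5 changed by -0.69 ± 0.05 (SE, adjusted p = 1.3e-11), Me1 by -0.62 ± 0.05 (SE, adjusted p = 9.73e-10) and Acly by -0.38 ± 0.05 (SE, adjusted p = 2.23e-07). Elovl6 changed by -0.34 ± 0.08 (SE, adjusted p = 0.00127). Fads2 differed by 0.11 ± 0.05 (SE, adjusted p = 0.07), with 394 to 438 CPM at 24 h and 376 to 399 CPM at 6 h. Markers of other cells changed too: 6 of 9 neuron markers were called higher and 2 lower at 24 h, 4 of 8 oligodendrocyte lineage markers higher and 2 lower, 3 of 9 vascular and meningeal markers higher and 1 lower, and 3 of 10 microglia markers higher. Of the astrocyte markers 1 of 10 was called higher and 4 lower. The part of these in the members' values was not tested.

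The 6 h controls ran on lane 5 and the 24 h controls on lane 6, and the only group on both is 6 h CHX, with 1 library on lane 6. Time and lane thus cannot be told apart beyond what that 1 library gives. Scd1 had -0.81 ± 0.14 (SE, adjusted p = 0.00014) and Scd2 -0.27 ± 0.10 (SE, adjusted p = 0.0488) in such a fit with lane as a covariate, and the other 4 members stayed called in it. CHX alone, T3 at 6 h and the time comparison use the same 6 h controls, so their values are not independent. All 8 libraries of the 6 h T3 comparison were on lane 5. In a fit of all groups without 24 h T3 replicate 3, the library on lane 7, the T3 change of Elovl5 at 24 h was 0.65 ± 0.06 (SE, adjusted p = 1.92e-08). Both groups of that comparison were then on lane 6, while the spread was estimated over lanes 5 and 6.

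The order of the groups differed among the members. For Elovl5 the means fell from 318 CPM in 6 h T3 to 253 in 6 h control, 244 in 24 h T3, 169 in 6 h CHX plus T3, 157 in 24 h control and 150.0 in 6 h CHX. Neighbours in that order overlapped only between 6 h control and 24 h T3, and between 24 h control and 6 h CHX. For Scd2 the T3 and control groups of each time overlapped, and the 24 h, the 6 h CHX plus T3 and the 6 h CHX libraries lay apart below them. Fasn had no pair of neighbouring groups that lay apart, and its highest group mean was 1.17 times its lowest. That ratio was 1.18 for Fads1, 1.27 for Acaca, 1.43 for Acly, 1.58 for Fads2, 1.59 for Elovl6, 1.88 for Me1, 2.12 for Elovl5, 2.34 for Scd1 and 2.81 for Scd2.

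**Figure D4:**
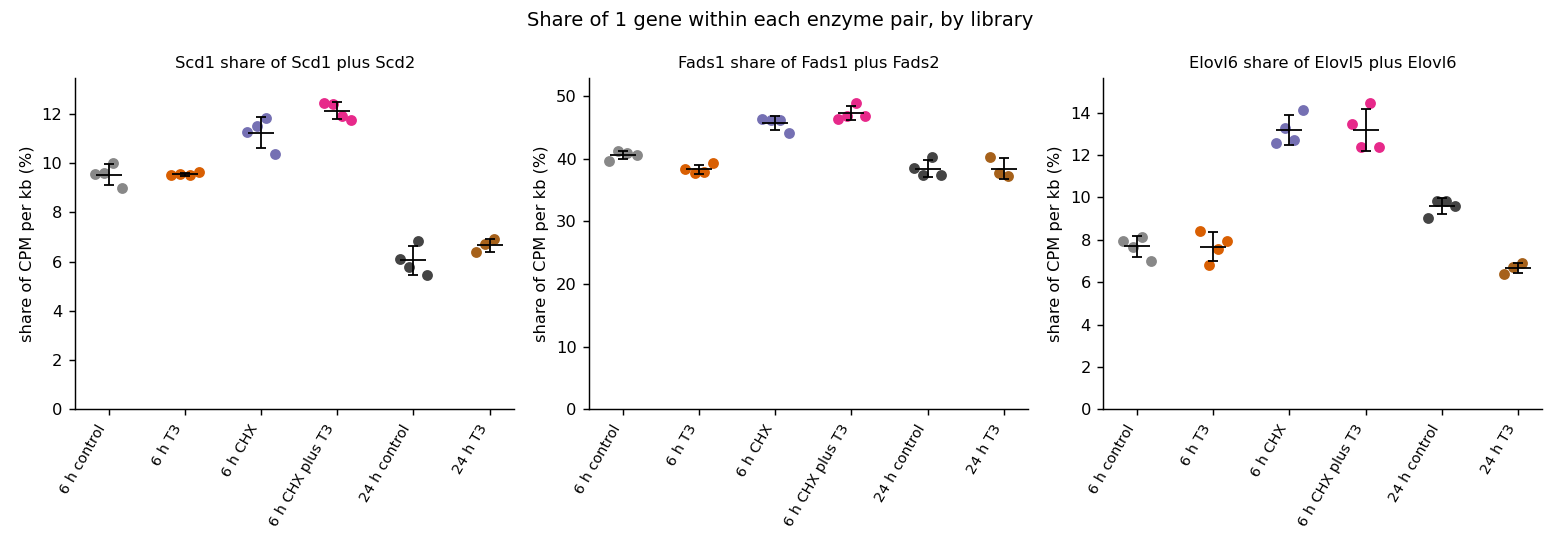
Share of 1 gene in the summed CPM per kb of exon of its enzyme pair, in percent, by library and group; points are libraries and black marks are the group mean with its SD. Scd1 takes its lowest shares at 24 h, and Elovl6 takes its highest in both CHX groups.

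Within enzyme pairs the balance moved between groups, given here as a description with no test. Scd1 made up 9.54% ± 0.412 of the summed CPM per kb of Scd1 and Scd2 in 6 h control (SD, n = 4). Its share was 11.2% ± 0.627 in 6 h CHX (SD, n = 4) and 6.05% ± 0.596 in 24 h control (SD, n = 4), and these 3 ranges did not overlap. Elovl6 made up 7.69% ± 0.508 of the elongase pair in 6 h control (SD, n = 4) and 7.68% ± 0.686 in 6 h T3 (SD, n = 4), with both genes called higher with T3. In 24 h control it made up 9.58% ± 0.383 (SD, n = 4) and in 24 h T3 6.67% ± 0.256 (SD, n = 3), where only Elovl5 was called, and it reached 13.2% ± 0.71 in 6 h CHX (SD, n = 4). Fads1 took 40.5% ± 0.661 of the desaturase pair in 6 h control (SD, n = 4), 45.7% ± 1.10 in 6 h CHX (SD, n = 4) and 38.4% ± 1.38 in 24 h control (SD, n = 4).

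Regulators of lipogenesis were mostly not called with T3. Of 20 genes measured, 1 was called higher and 1 lower at 6 h, 1 higher at 24 h and 2 higher with CHX present, beside 2.61%, 4.41% and 1.16% of all genes called higher and 1.16% lower at 6 h. Ppargc1a, a coactivator of energy metabolism genes, was higher in all 3, by 0.42 ± 0.11 (SE, adjusted p = 0.0336) at 6 h, 0.57 ± 0.12 (SE, adjusted p = 0.00281) at 24 h and 0.44 ± 0.11 (SE, adjusted p = 0.0361) with CHX. Srebf1, the gene of SREBP-1, was lower at 6 h, with 210.1 ± 9.08 CPM in 6 h T3 and 241 ± 17.7 CPM in 6 h control (SD, n = 4 each), a log2 change of -0.20 ± 0.05 (SE, adjusted p = 0.0373). At 24 h it differed by -0.16 ± 0.06 (SE, adjusted p = 0.0978), and by -0.21 ± 0.06 (SE, adjusted p = 0.0411) without 24 h T3 replicate 1. It was also called lower there with DESeq2 (adjusted p = 0.035) and with length and GC trends removed (adjusted p = 0.0298). The call of Srebf1 at 6 h was lost in 2 other settings and 5 fits that left out 1 library, up to an adjusted p of 0.151. That of Ppargc1a was lost in 7 of the latter at 6 h and in 6 with CHX. At 24 h the Ppargc1a groups overlapped, and its call was lost in the fit of only the groups compared (adjusted p = 0.0836).

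Thrsp, known as Spot 14 and as a T3-induced gene of liver, had 59.7 ± 6.33 CPM in 6 h control and 44.8 ± 3.06 CPM in 6 h T3 (SD, n = 4 each). Its values with T3 were -0.41 ± 0.13 (SE, adjusted p = 0.0656) at 6 h and -0.37 ± 0.13 (SE, adjusted p = 0.0961) at 24 h, and neither was called. At 6 h, however, it was called lower in 7 of the 9 other settings (-0.42 with DESeq2, adjusted p = 0.0246) and in 3 of the 23 fits that left out 1 library. At 24 h it was called lower in 2 other settings and 2 such fits, and without 24 h T3 replicate 1 it had -0.60 ± 0.12 (SE, adjusted p = 0.00159). CHX alone lowered it by a log2 change of -1.46 ± 0.13 (SE, adjusted p = 4.38e-10). Srebf2, the gene of the sterol regulator SREBP-2, differed by 0.09 ± 0.06 (SE, adjusted p = 0.442) with T3 at 6 h. It was lower with CHX alone, at -0.51 ± 0.06 (SE, adjusted p = 2.42e-08), and in 24 h against 6 h controls, at -0.63 ± 0.06 (SE, adjusted p = 2.76e-09). Insig1, which holds SREBPs in the endoplasmic reticulum, differed by -0.09 ± 0.07 (SE, adjusted p = 0.574) with T3 at 6 h and rose by 0.32 ± 0.07 (SE, adjusted p = 0.0196) with T3 in the presence of CHX, a call lost in 1 other setting and 5 fits that left out 1 library. With CHX alone 8 regulators were called higher and 9 lower, led by Nr1d1 at 3.55 ± 0.05 (SE), and between the controls 5 were higher and 11 lower at 24 h. Over all genes these shares were 37% and 30.6% with CHX and 28.2% and 28.4% between the controls.

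**Figure D5:**
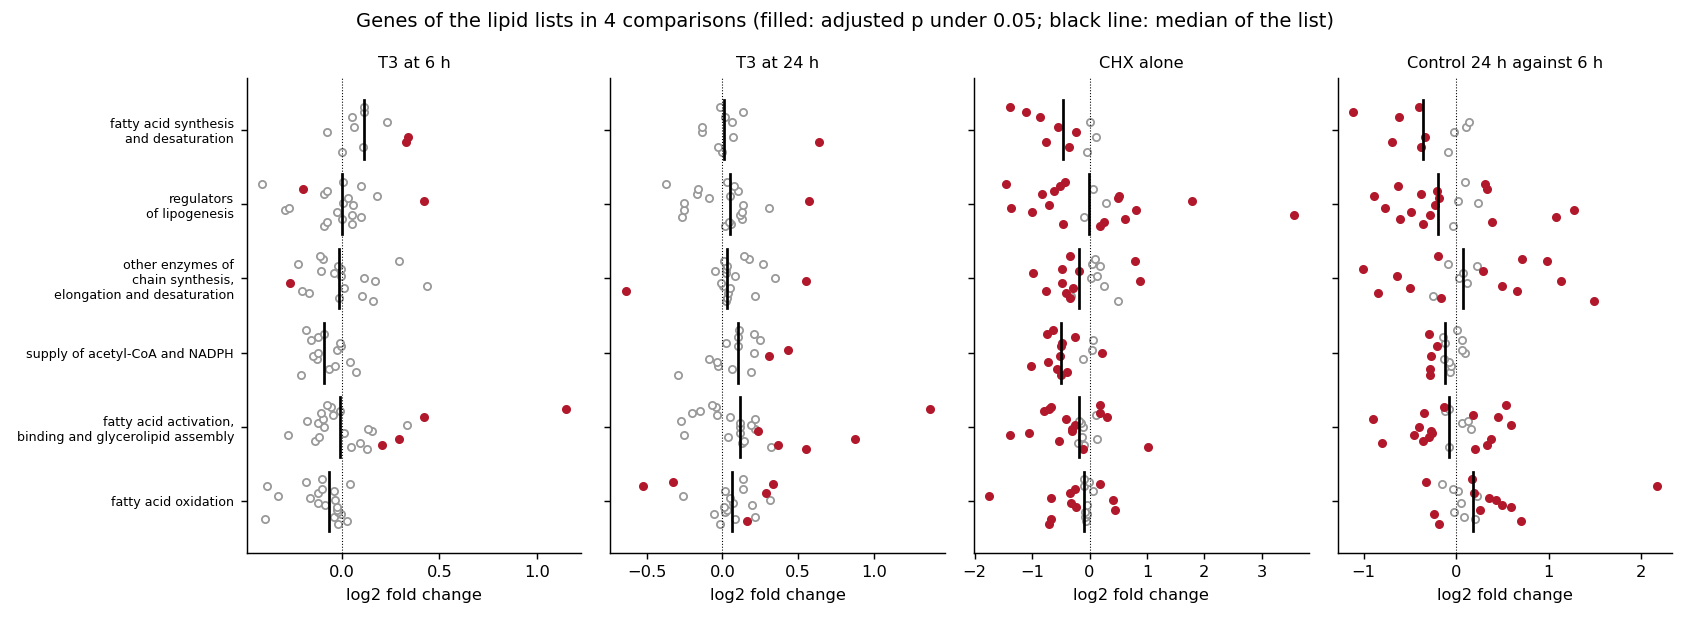
Log2 fold change of each measured gene of the members' list and of 5 related lists in 4 comparisons; filled red points were called at an adjusted p under 0.05, open points were not, and black lines are list medians. Called genes lie to the right in the activation and assembly list with T3, and the members' median lies at -0.45 with CHX alone.

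Several genes of the list for fatty acid activation, binding and glycerolipid assembly rose with T3. Of 23 measured, 4 rose at 6 h, 5 rose at 24 h and 1 rose with CHX present, and none was called lower in these 3 comparisons (2.61%, 4.41% and 1.16% of all genes rose). Lpin3, a phosphatidate phosphatase, rose in all 3, by 1.15 ± 0.12 (SE, adjusted p = 9.39e-07), 1.37 ± 0.13 (SE, adjusted p = 4.44e-08) and 0.90 ± 0.13 (SE, adjusted p = 0.000204). Its level was 9.43 ± 1.85 CPM in 6 h control and 20.8 ± 2.13 CPM in 6 h T3 (SD, n = 4 each). Acsl6, an acyl-CoA synthetase, rose by 0.29 ± 0.07 (SE, adjusted p = 0.0105) at 6 h and by 0.88 ± 0.07 (SE, adjusted p = 2.26e-09) at 24 h. That difference between times was 0.58 ± 0.10 (SE, adjusted p = 0.00354). Acsbg1, an acyl-CoA synthetase of brain, rose at 24 h by 0.55 ± 0.06 (SE, adjusted p = 2.58e-07), and Acsl3 rose by 0.20 ± 0.05 (SE, adjusted p = 0.0205) and 0.36 ± 0.05 (SE, adjusted p = 4.55e-05). At 6 h the call of Acsl3 was lost without 6 h control replicate 2 or 3 or 6 h T3 replicate 3 or 4 (adjusted p up to 0.104), and that of Acsl6 with length and GC trends removed (adjusted p = 0.067). Gpam, which starts glycerolipid assembly, rose at 6 h by 0.42 ± 0.12 (SE, adjusted p = 0.0459), a call lost in 16 of the 23 fits that left out 1 library and in 1 other setting.

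Of the 19 measured enzymes of chain synthesis, elongation and desaturation outside the members, 1 was called lower with T3 at 6 h, as were 1.16% of all genes, and 1 in each direction at 24 h, where 4.41% of all genes were higher and 2.68% lower. Elovl2, which lengthens very long polyunsaturated chains, was lower at 24 h, with 8.79 ± 1.18 CPM in 24 h T3 (SD, n = 3) and 13.8 ± 1.13 CPM in 24 h control (SD, n = 4), a log2 change of -0.64 ± 0.11 (SE, adjusted p = 0.000218). Fads6 rose at 24 h by 0.55 ± 0.13 (SE, adjusted p = 0.00704). Fads3 was lower at 6 h, at -0.27 ± 0.07 (SE, adjusted p = 0.041), and lost its call in 11 fits that left out 1 library. Scd3, Elovl3 and Olah were under the filter. With CHX alone 2 of the 19 were called higher and 9 lower, beside 37% and 30.6% of all genes.

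Genes that supply acetyl-CoA and NADPH were not called with T3 at 6 h or with CHX present, and 2 of 15 rose at 24 h. These were Me3, a mitochondrial malic enzyme, by 0.43 ± 0.09 (SE, adjusted p = 0.00203), and Mdh1, the cytosolic malate dehydrogenase, by 0.31 ± 0.08 (SE, adjusted p = 0.0217), beside 4.41% of all genes. Mdh1 lost its call in 2 other settings and 3 fits that left out 1 library, with 0.15 ± 0.07 (SE, adjusted p = 0.256) without 24 h T3 replicate 1, and Me3 in the fit of only the groups compared (adjusted p = 0.124). CHX alone lowered 11 of the 15 and raised 1, beside 30.6% and 37% of all genes. G6pdx, the NADPH-forming glucose 6-phosphate dehydrogenase gene, changed by -1.02 ± 0.06 (SE) and Idh1 by -0.72 ± 0.04 (SE). Of 20 measured fatty acid oxidation genes, none was called with T3 at 6 h, 3 were higher and 2 lower at 24 h (4.41% and 2.68% of all genes), and 9 were higher and 3 lower in 24 h against 6 h controls (28.2% and 28.4% of all genes). Cpt2 and Acadm changed by 0.59 ± 0.06 and 0.70 ± 0.05 (SE) between the controls.

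Patterns over the 23 libraries were compared as a description, with no test. Since libraries of a group share their treatment, time and mostly their lane, such correlations of log2 CPM follow the group means. The genes most like Elovl5, among the 12858 protein-coding genes whose mean was 1 CPM or more, were Atp1b1 (r = 0.98), Desi1 (r = 0.97) and Agpat5 (r = 0.94). For Scd1 they were Slc38a2, Acly and Sema4b, each at r = 0.97, and for Acly they were Slc7a1, Cd109 and Srebf2, each at r = 0.98. Scd2 followed Ipmk, Zcchc24 and Fgfr1 at r = 0.99, and Fads2 followed Sbk1, Ick and Nkain1 at r = 0.98. Me1 had Nacc1, Eif1ax and Lrrfip2 at r = 0.98, Elovl6 had Nab1, Itgb8 and Spred2 at r = 0.92 to 0.93, and Fads1 had Mvb12b, Coro2b and Adgrg1 at r = 0.86 to 0.87. Acaca had G2e3 (r = 0.89), Herc1 (r = 0.86) and Akap13 (r = 0.85). Fasn had no gene above r = 0.77, where Chd3 stood, followed by Baz2b (r = 0.75) and Gpam (r = 0.73).

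Among the 45 pairs of members, 36 correlated positively, with a median r of 0.39. Acly and Scd1 were the closest pair, at r = 0.97, and after each group's mean was taken away their r was still 0.75. In contrast, Acly and Me1 had r = 0.89 over all libraries and -0.31 after the group means were taken away. Elovl6 and Fads2 had the lowest value, r = -0.45. After the group means were taken away the median r of the pairs was 0.26, and the closest pair was Fasn and Acly at r = 0.79. Single libraries bear on these values within groups. 24 h T3 replicate 1 had the highest Me1 (106 CPM) and the lowest Acly (216 CPM) of its group. It was the lowest of its group for 8 members, and 6 h T3 replicate 2 for 9. How far the values rest on these libraries was not tested.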

How the data were processed

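Per the labels' protocols, RNA of primary astrocyte cultures was made into libraries with an unstranded kit and sequenced as single reads of 50 nt. The submitters' processing notes name Bowtie, TopHat, HTSeq, edgeR and GRCm38. For versions, counting mode and annotation release, nothing is given in the sources. The authors deposited raw counts of reads per Ensembl gene, used here as deposited. The 5 closing lines of each file name no gene and were left out. Among them, non-unique alignments made up 30.7 to 42.3% of a library, reads with no feature 3.75 to 5.81% and ambiguous reads 1.40 to 1.70%.

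Groups came from the sample titles. Symbols came from GENCODE M21, in which 36345 identifiers and all 166 list symbols were found, and promoters from RefSeq (GRCm38.p6). In R 4.3.3, edgeR 4.0.16 kept 16087 genes (filterByExpr, minimum count 10), scaled by TMM and fitted 1 mean per group over 23 libraries (17 residual degrees of freedom, biological coefficient of variation 8.57%). Its quasi-likelihood F test was adjusted over all genes by Benjamini-Hochberg and called at 0.05. SE is the log2 change divided by the square root of F. The 95% intervals take this SE times a t quantile at 17 degrees of freedom, so they need not match the F test exactly. Levels are CPM on TMM-scaled library sizes. The code was tested on simulated data. Replicates differed from each other by more than sampling noise, and no files were identical.

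The members and gene lists were chosen with earlier results of these data known. All members are named, and of each related list the called genes with the smallest adjusted p, at most 4 per comparison, plus Srebf1, Srebf2, Insig1 and Thrsp. Some genes that this rule names are not reported. The choice of promoters and pair shares to print followed the values. Alternatives were DESeq2 1.42.0, RLE factors, no filter, lane, replicate blocks, fits of only the groups compared, removal of length and GC trends, and leaving out libraries. Proteins were not used here.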

Additional observations from a re-analysis of the deposited data

Results flagged for a closer look

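In 4 of the 50 groups of 4 libraries tested, 1 library lay far from the other 3 of its group, where chance flags about 1 in 20. Acaca had 33.3 CPM in 24 h control replicate 4 and 36.5 to 37.1 CPM in the others. Acly had 258 CPM in 6 h CHX replicate 3 and 235 to 238 CPM in the others. In 6 h CHX plus T3 replicate 3, Me1 had 87.8 CPM against 83.6 to 84.2 CPM, and Fads2 had 243 CPM against 271 to 274 CPM.

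Tests of the difference itself set some T3 effects apart between times or between cultures with and without CHX. The T3 effect at 24 h exceeded that at 6 h by 0.31 for Elovl5, 0.58 for Acsl6, 0.42 for Acsbg1 and 0.41 for Hadh, a mitochondrial oxidation gene, on the log2 scale. The call for Hadh was lost in 3 other settings and in 9 of the 23 fits that left out 1 library. For Hr the T3 effect at 24 h minus that at 6 h was -0.53, and that with minus without CHX was -1.41. The first of these calls was lost with only the groups compared (adjusted p = 0.0527). It was also lost in 2 of the 23 fits that left out 1 library, up to an adjusted p of 0.0567. For Insig1 the effect with minus without CHX was 0.41, a call lost in 18 of the 23 fits that left out 1 library, up to an adjusted p of 0.123.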

How the results depend on the processing

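Each of the 70 member values was recomputed under 32 alternatives, which gave 2240 values. Of these 2184 stayed called or stayed uncalled, 23 lost the call, 33 gained one and 0 turned a called value. Among the 2184 were 64 uncalled values that differed in sign. Of the 3581 values of other named genes, 141 lost a call, 28 gained one and 1 turned: Acss1 in 24 h against 6 h controls, which was 0.091 (adjusted p = 0.72) with lane as a covariate.

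With T3 at 6 h the number of members called, 2, ranged from 1 to 3 when 1 library was left out. It was 1 without 6 h control replicate 2, 6 h T3 replicate 1 or 6 h T3 replicate 4. It was 3, with Fasn added, with a replicate block by letter, with length and GC trends removed, without 6 h CHX replicate 4 and 24 h T3 replicate 1 at once, and without 24 h T3 replicate 1, 6 h control replicate 3 or 6 h T3 replicate 2. With T3 at 24 h it was 1, and 2 with DESeq2. With T3 in the presence of CHX it was 1. It became 4 with DESeq2 and with only the groups compared, 3 with length and GC trends removed, 2 with lane and with a replicate block by letter, and 0 once 6 h CHX replicate 4 and 24 h T3 replicate 1 were both left out, and ranged from 0 to 4 when 1 library was left out. For the difference of T3 effects with and without CHX it was 0, and 1 with DESeq2. For the difference between times it was 1, and 0 without the filter and with only the groups compared, and from 0 to 1 when 1 library was left out. With CHX alone it was 7 to 8 and between the controls 6 to 7 over the alternatives. The cause was not tested.

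Same-numbered libraries did not deviate together (correlations of their deviations from -0.0882 to 0.091). This gave no sign of pairing but cannot exclude it. Libraries also carry letters A to D, shared between groups, with A, C and D in 24 h T3. With the replicate block by number 2 members were called with T3 at 6 h, 1 at 24 h and 1 with T3 in the presence of CHX, each the number without it. The block by letter added Fasn at 6 h (0.23, adjusted p = 0.0434) and Scd2 with CHX present (0.21, adjusted p = 0.0425). Among all genes the block by number called 536 higher and 224 lower with T3 at 6 h (420 and 186 without it). For the T3 effects with against without CHX it called 381, and the block by letter 368, against 196. Between times it called fewer, 76 higher and 44 lower (87 and 48 without it). Over all genes, the calls with T3 at 6 h (606) ranged from 349 to 989 when 1 library was left out and were 1020 with length and GC trends removed and 1191 without the pair named above. With T3 at 24 h the 1140 calls were 401 with only the groups compared. With T3 in the presence of CHX the 208 calls ranged from 138 to 417 without 1 library and were 343 with DESeq2, 349 with length and GC trends removed, 407 with only the groups compared and 660 with lane, where 49.4% were higher against 89.9%. Between the controls 9105 became 4414 with lane. The differences of T3 effects ranged, when 1 library was left out, from 30 to 479 (196) with against without CHX and from 69 to 350 (135) between times, and DESeq2 called 514 and 365 of them. The fewest counts of any member in a library were 442 (Elovl6, 24 h control replicate 1), so depth did not keep a member out of the tests, while 24 h T3 has only 3 libraries.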
